A study of Mus musculus with 13 samples.

Results

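The genes described here are 10 early-response transcription factor genes of the EGR, FOS, JUN and NR4A families, measured in the gastrocnemius muscle of mice that carried a UCP1 transgene and of wild type mice. They were taken by symbol, as every non-control probe on the array whose gene name was Egr1, Egr2, Egr3, Fos, Fosb, Jun, Junb, Nr4a1, Nr4a2 or Nr4a3. All 10 were on the array, with 11 of its 55681 probes, since Nr4a2 had a pair of probes. Of the 10 genes, 7 passed the filter on dim probes and were tested among 17257 genes, whereas Egr3, Junb and Nr4a3 did not pass it. The genes were chosen with earlier results of these arrays in view, so that the opposite directions of Egr1 and of Nr4a1 and Nr4a2 were known beforehand.

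The study compared 6 wild type with 7 UCP1 transgenic mice, all adult males on a C57BL/6J background, the transgenic mice being littermates of the wild type ones. Both groups received a purified low fat diet over 12 weeks, and the series text gives an age of 12 weeks without saying whether it is the age before or after the diet. The labels place the transgene in skeletal muscle, and the promoter that drives it is not given in the sources used here. RNA of each mouse was labelled with Cy5 and hybridised on 1 array against a Cy3-labelled reference pool, so that a log2 ratio of 0 is the level of the pool and not that of wild type muscle. Dyes were not swapped. Each array is called a mouse below, and every difference is UCP1 transgenic minus wild type on the log2 scale. A gene is said to have risen or fallen where the Benjamini-Hochberg adjusted p of limma, a linear model fitted over all 17257 genes, was below 0.05. The number of arrays limits the precision.

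Early-response genes are transcribed within minutes of a stimulus, without the need for newly made protein, and their mRNAs are short-lived. In skeletal muscle, contraction, adrenergic signalling, growth factors and stress are known to induce them. ERK signalling acts on several of their promoters through serum response factor and its partners, which bind CArG boxes, and cAMP and calcium act through CREB, which binds cAMP response elements (CRE). The proteins are DNA-binding factors with targets of their own: EGR proteins are zinc finger activators, FOS and JUN proteins pair to form the AP-1 factor, and NR4A proteins are orphan nuclear receptors that control genes of glucose and fat handling in muscle.

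Promoter windows of 250 bases upstream of annotated starts were available for 8 of the 10 genes in RefSeq on GRCm38.p6, all but Egr1 and Egr3, with 12 windows in total. The NR4A windows are shown because all 3 hold 4 copies of TGACG, the core of the CRE, counted on either strand and set in capitals, and the Fos window is shown beside them for comparison. The windows lie at chr15:101266596-101266845 on the plus strand for Nr4a1, chr2:57124004-57124253 on the minus strand for Nr4a2, chr4:48045055-48045304 on the plus strand for Nr4a3 and chr12:85473640-85473889 on the plus strand for Fos, and each is written 5′ to 3′ along its gene.
Nr4a1: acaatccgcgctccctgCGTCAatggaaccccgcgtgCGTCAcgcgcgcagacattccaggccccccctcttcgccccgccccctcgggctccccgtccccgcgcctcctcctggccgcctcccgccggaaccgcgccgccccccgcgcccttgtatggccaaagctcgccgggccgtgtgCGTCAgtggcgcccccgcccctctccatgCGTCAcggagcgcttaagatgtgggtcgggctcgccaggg
Nr4a2: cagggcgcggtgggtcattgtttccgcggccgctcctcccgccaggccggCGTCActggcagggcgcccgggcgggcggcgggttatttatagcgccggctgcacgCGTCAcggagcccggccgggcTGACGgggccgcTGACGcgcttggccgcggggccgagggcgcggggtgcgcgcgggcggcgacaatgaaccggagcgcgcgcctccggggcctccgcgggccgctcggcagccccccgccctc
Nr4a3: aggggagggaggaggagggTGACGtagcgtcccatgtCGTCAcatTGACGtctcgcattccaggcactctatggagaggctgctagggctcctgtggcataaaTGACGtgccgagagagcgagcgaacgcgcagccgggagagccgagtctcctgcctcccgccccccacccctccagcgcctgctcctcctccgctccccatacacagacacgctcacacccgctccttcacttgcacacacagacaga
Fos: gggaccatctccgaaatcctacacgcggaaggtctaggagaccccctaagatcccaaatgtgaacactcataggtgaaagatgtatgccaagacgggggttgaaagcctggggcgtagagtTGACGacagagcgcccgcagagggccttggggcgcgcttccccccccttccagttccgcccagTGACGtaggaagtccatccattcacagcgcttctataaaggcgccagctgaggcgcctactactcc

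Counted from the start, the 4 core matches lay between positions -233 and -40 in Nr4a1, -200 and -111 in Nr4a2, and -231 and -147 in Nr4a3. Fos held 2 of them, at -129 and -66, Fosb and Junb 1 each, and Jun none. Egr2 held 2 in each of the windows of its starts 3, 4 and 5, at -111 and -55 for start 3, and none in its other windows. These 3 Egr2 windows overlap, and the 2 cores are the same sites in each. At least 1 core was present in 17.8% of all 32851 windows of the same length, at least 2 in 3.9% and at least 4 in 0.137%, or 45 windows. The count of 4 was singled out after the windows had been read. The full palindrome TGACGTCA, which contains the core, occurred in none of their windows and in 1.55% of all windows.

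Egr2 has 5 annotated starts in the table, and 4 of its windows hold a CArG box, a motif found in 1.47% of all windows and in none of the other 7 genes with a window. A stretch of 30 bases at chr10:67537793-67537822 on the plus strand, GRCm38.p6, shows the CArG box and, after it, a CRE core, both in capitals.
Egr2: cagtCCATATATGGgcagcgaCGTCAcggg

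The other motifs, each searched on both strands, gave fewer matches. The EGR motif GCGNGGGCG was found in the windows of Fosb, Nr4a1 and Nr4a2, against 4.7% of all windows. The AP-1 motif TGANTCA and the NR4A monomer motif AAAGGTCA had no match in the 8 genes with a window, against 6.75% and 1.34% of all windows. The TATA box letters TATAAA were present in Fos and Nr4a2 and in 12.4% of all windows. These are matches of letters, which say nothing about binding in these muscles. The map of motif matches shows where they lie.

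**Figure D1:**
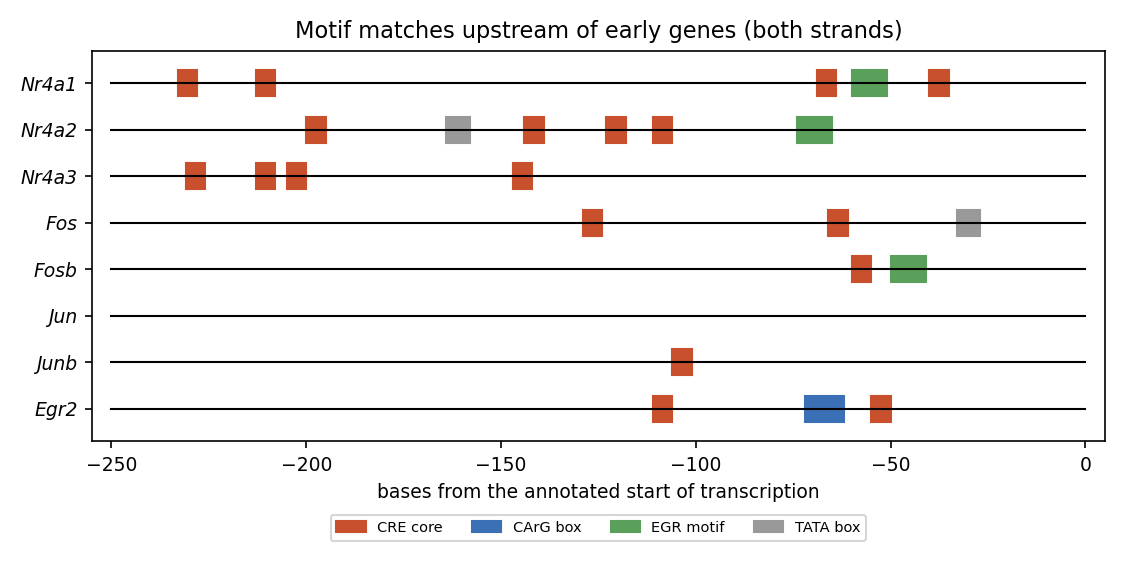
Matches of the searched motifs in the 250 bases upstream of the annotated start of 8 genes, drawn to scale, with the x axis giving the distance from the start in bases, each row 1 gene and each block 1 match. The 3 NR4A rows carry 4 CRE core matches each, and the CArG box appears in the Egr2 row only, which is drawn for the start whose stretch is printed above.

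EGR1 is a zinc finger activator that responds to growth factor and ERK signals. Its log2 ratio lay between -1.73 and -0.96 in wild type muscle, with a median of -1.52, and between -0.04 and 1.44 in transgenic muscle, with a median of 1.04. All 7 transgenic mice lay above all 6 wild type mice. The means were -1.42 ± 0.31 (SD, n = 6) and 0.85 ± 0.55 (SD, n = 7). Egr1 rose by 2.28 ± 0.20 (SE), or 4.84-fold, with a 95% interval from 1.86 to 2.70 and a limma adjusted p of 4.5e-08. Only 0.203% of the genes tested differed by more in either direction. Agilent's own log ratio gave a larger difference of 2.92 (adjusted p = 5.4e-06), above that interval. The Cy5 signal of Egr1 lay between 75.1 and 187.5 in wild type mice, over a local background of 30. Within the 4 slides, on each of which both groups were present, the difference was 2.81, 1.54, 2.48 and 2.06.

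Egr2, whose product drives peripheral nerve myelination and is also an early-response factor, moved in the same direction, by an amount that depended on the processing. Its log2 ratio ranged from -0.22 to 0.00 in wild type mice, median -0.17, and from -0.05 to 0.38 in transgenic mice, median 0.23. The groups overlapped, since transgenic mice 3 and 5 lay inside the wild type range. Egr2 rose by 0.31 ± 0.08 (SE), or 1.24-fold, with an adjusted p of 0.0061, and 21.3% of all genes differed by more. The difference within the 4 slides was 0.53, 0.07, 0.18 and 0.42. Schwann cells express Egr2, and 3 of 5 Schwann cell markers also rose, against 16.9% of all genes. The part of these cells in the Egr2 difference was not tested. Its probe, at chr10:67004798-67004857 on the plus strand of mm9, the build to which the array's probe positions refer, was dim, with a Cy5 signal between 48.6 and 121 over a local background of 31, and was well above background in 5 of 6 wild type and 7 of 7 transgenic mice. Agilent's own log ratio gave 0.92 for the same gene, and the authors' deposited value table gave 0.32 with an adjusted p of 0.08, which is no call. The offset of 50 added in the background correction here draws log2 ratios of dim probes towards 0. Its part in these values was not tested.

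The Egr3 probe, at chr14:70479222-70479281 on the plus strand of mm9, was not well above background in any mouse, its signal lying between 30.1 and 40.5 over a local background of 30, so that neither a level nor a difference could be measured for the third EGR member.

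FOS and FOSB are the partners that JUN proteins take to form AP-1. Their probes lie at chr12:86817900-86817959 on the plus strand and chr7:19888168-19888227 on the minus strand of mm9. Fos ranged from -0.83 to 0.79 in wild type mice, median 0.20, and from -0.59 to 0.27 in transgenic mice, median -0.37. The transgenic range lay inside the wild type range. The difference of -0.29 ± 0.22 (SE) did not pass the threshold, with an adjusted p of 0.34 and a 95% interval from -0.75 to 0.17. Leaving out the array labelled wild type 5 moved it to -0.15, and leaving out wild type 4 moved it to -0.47, neither passing the threshold. It was negative on 3 of the 4 slides and 0.35 on the other.

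Fosb ranged from -0.31 to 0.50 in wild type mice, median 0.00, and from -0.28 to -0.03 in transgenic mice, median -0.23. Again the transgenic range lay inside the wild type range, whose 2 highest values, 0.46 and 0.50, were those of wild type mice 5 and 6. The difference of -0.24 ± 0.12 (SE) had an adjusted p of 0.12 and a 95% interval from -0.48 to 0.002. It passed with slide as a fixed term, at -0.27 and an adjusted p of 0.047, but not with slide as a random one, at -0.25 and 0.072. It also passed in the authors' deposited value table, at -0.46 and 0.036, and without wild type 3, at -0.31 and 0.039. Agilent's own log ratio gave -0.58 with an adjusted p of 0.16. Without wild type 6 it was -0.15, and without wild type 5 it was -0.16. The SD between wild type mice, 0.35, was 3.41 times that between transgenic mice, 0.10, a ratio that was not tested.

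JUN is the core partner of AP-1, and its probe lies at chr4:94716928-94716987 on the minus strand of mm9. Its log2 ratio ranged from -0.21 to 0.26 in wild type mice, median -0.03, and from -0.74 to -0.01 in transgenic mice, median -0.47. Of the transgenic mice only number 4, at -0.01, lay within the wild type range. Jun fell by 0.45 ± 0.10 (SE), the wild type level being 1.37-fold higher, with an adjusted p of 0.002. The Junb probe, at chr8:87501881-87501940 on the minus strand of mm9, was well above background in 1 mouse, wild type 5, with a signal between 37.9 and 62.8 over a local background of 33, and gave no usable difference. JUNB is the AP-1 partner known to hold up muscle mass.

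Nr4a1 and Nr4a2 fell where Egr1 rose. Nr4a1 encodes NUR77, which raises glucose use in fast muscle, and its probe, at chr15:101105071-101105130 on the plus strand of mm9, was bright, with a signal between 9871.8 and 28005.6. Its log2 ratio ranged from -0.05 to 0.75 in wild type mice, median 0.55, and from -0.57 to 0.24 in transgenic mice, median -0.31. The overlap came from wild type 4, at -0.05, while the other wild type mice were at 0.32 or above. Nr4a1 fell by 0.70 ± 0.13 (SE), 1.62-fold, with an adjusted p of 0.00039, and 3.93% of all genes differed by more. The difference was negative on all 4 slides, at -0.19, -0.76, -0.41 and -1.08.

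Nr4a2 encodes NURR1, best known from dopamine neurons and also induced in exercised muscle. The probe used for it, a 60-base oligonucleotide at chr2:56960699-56960758 on the minus strand of mm9, is printed because the deepest fall among these genes was read from it.
Nr4a2 probe: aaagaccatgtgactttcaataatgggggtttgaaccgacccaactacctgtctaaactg

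Nr4a2 ranged from -0.28 to 1.67 in wild type mice, median 0.70, and from -1.10 to -0.36 in transgenic mice, median -0.59. The groups did not overlap, although wild type 4 at -0.28 lay next to the highest transgenic mouse, number 4, at -0.36. The means were 0.71 ± 0.66 (SD, n = 6) and -0.68 ± 0.28 (SD, n = 7). Nr4a2 fell by 1.38 ± 0.21 (SE), or 2.61-fold, with an adjusted p of 5e-05, and 0.788% of all genes differed by more. Agilent's own log ratio gave a larger difference of -2.11. The other Nr4a2 probe, at chr2:56959637-56959696 on the same strand, fell by 1.34 ± 0.23 (SE) with an adjusted p of 0.00012 over all kept probes, and there too no transgenic mouse reached the lowest wild type value. The wild type mice differed widely among themselves, from 1.67 and 1.08 in mice 5 and 6 to 0.38 in mouse 3 and -0.28 in mouse 4.

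Nr4a3 encodes NOR1, which favours oxidative metabolism in muscle. Its probe, whose mm9 positions chr4:48080690-48083876 on the plus strand span more than its 60 bases, was well above background in 1 of 6 wild type mice, mouse 5, and in none of the 7 transgenic mice, with signals between 34.9 and 51.7 over a local background of 31.3. Its difference of -0.14 ± 0.07 (SE) over all probes had an adjusted p of 0.24. No bound is given, as both groups lay almost wholly at background. Among the genes above background, wild type 5 had the highest Fos, Jun and Nr4a1 ratios of the 13 mice, at 0.79, 0.26 and 0.75, and among wild type mice the highest Egr1 ratio, at -0.96. On the Nr4a2 probes it was highest on the one printed, at 1.67, and next to wild type 6 on the other, at 1.84 against 1.86.

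Of the 7 genes tested, 2 rose and 3 fell, against 33.0% of all genes called in either direction, 16.9% called higher and 16.1% called lower. Egr1 and Nr4a2 were the 2 whose groups did not overlap, against 14.7% of all genes, made up of 7.47% wholly above and 7.26% wholly below the wild type range. The called share was 71.4% of the genes that passed the filter, a count that supports nothing beyond itself because the genes were chosen with results in view. Their median difference was -0.29 against 0.00 over all genes.

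**Figure D2:**
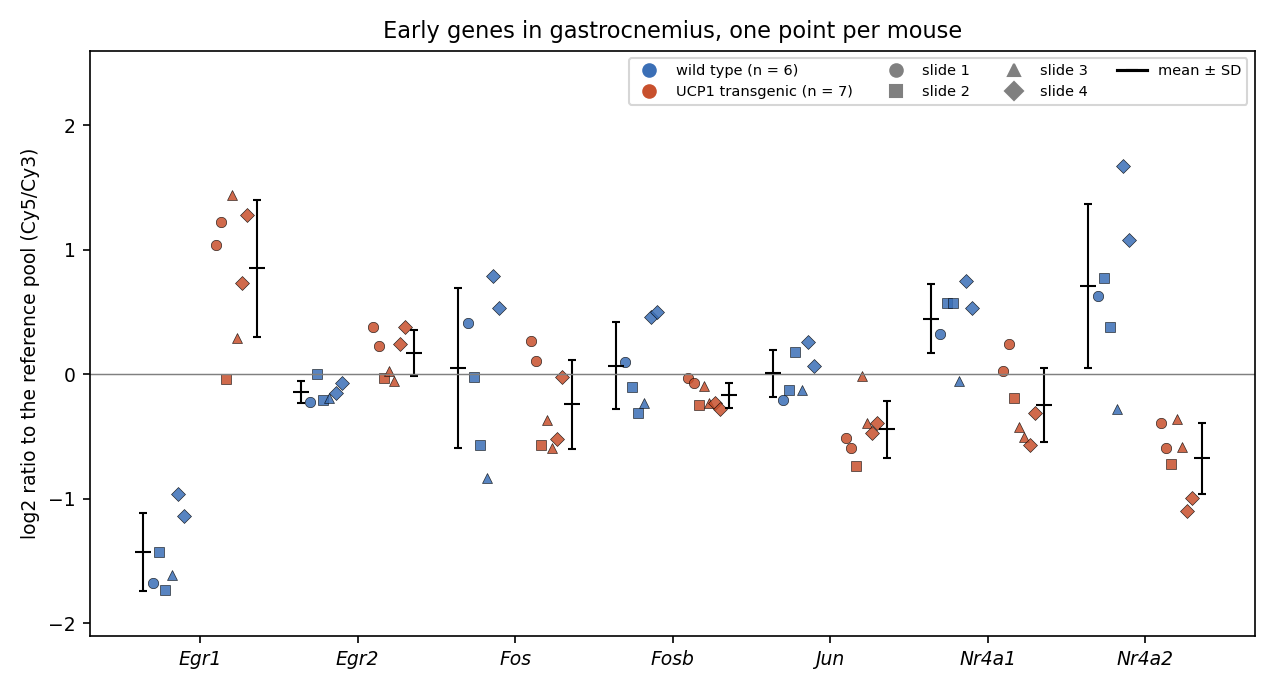
Log2 ratio of Cy5 (mouse) over Cy3 (reference pool) of the 7 genes tested. Points are single mice, wild type (n = 6) and UCP1 transgenic (n = 7), with shapes for the 4 slides, and bars are the group mean ± SD. Egr1 lies between -1.73 and -0.96 in wild type and between -0.04 and 1.44 in transgenic mice, Nr4a2 separates the groups in the other direction, and Fos and Fosb overlap throughout.

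**Figure D3:**
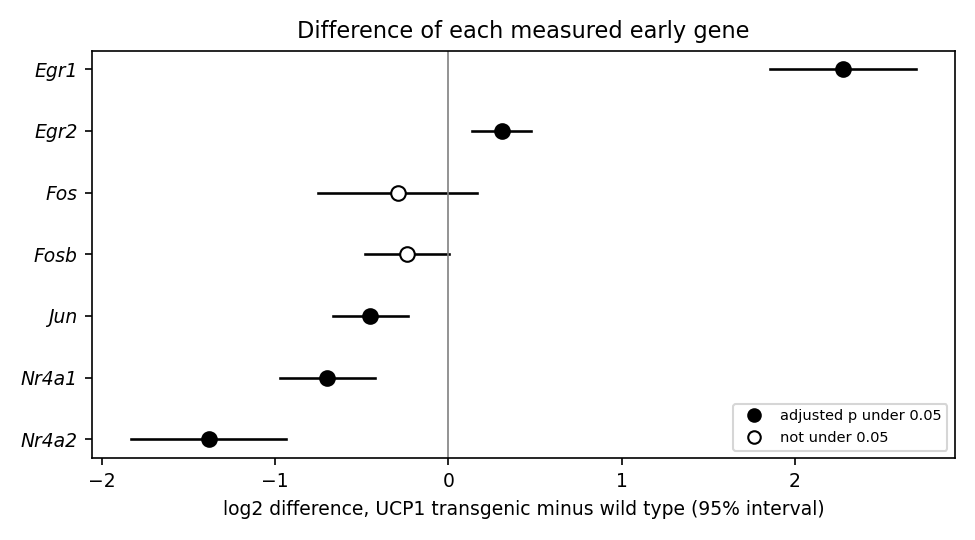
Difference in log2 ratio, UCP1 transgenic minus wild type, with its 95% interval from limma for the 7 genes tested. Egr1 stands at 2.28 and Nr4a2 at -1.38, and the intervals of Fos and Fosb reach 0.

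Read mouse by mouse, the log2 ratio of Egr1 minus that of Nr4a1 ran from -2.30 to -1.56 in wild type and from 0.15 to 1.86 in transgenic mice. For Egr1 minus Nr4a2 the ranges were -2.63 to -1.33 and 0.68 to 2.28. These are differences between ratios to the pool, not between transcript levels, and they are given without a test because the genes were picked for this contrast. Every transgenic mouse was positive and every wild type mouse negative on both.

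**Figure D4:**
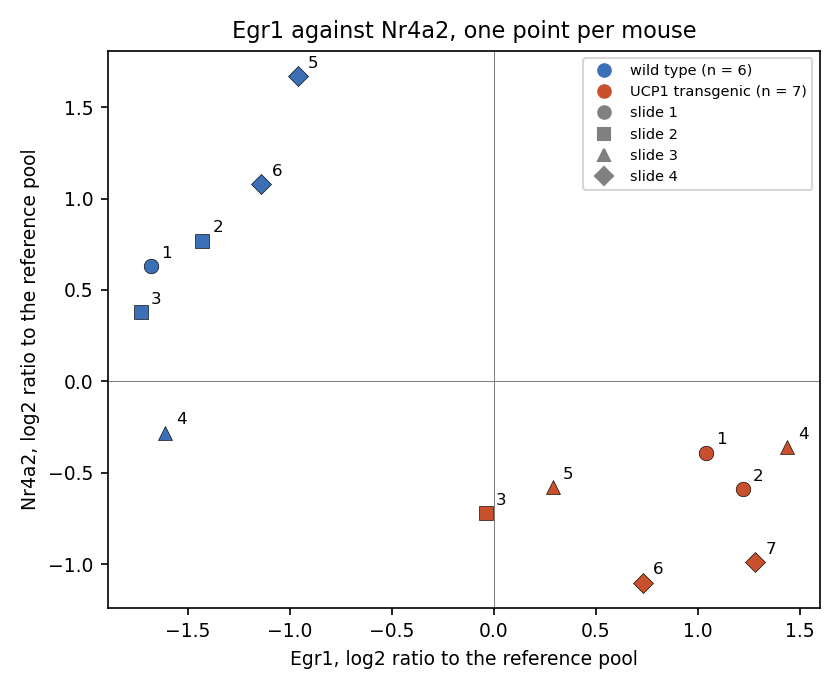
Log2 ratio of Egr1 (x axis) against that of Nr4a2 (y axis), 1 point per mouse, wild type (n = 6) and UCP1 transgenic (n = 7). Wild type mice lie at low Egr1, with Nr4a2 from -0.28 to 1.67, and transgenic mice at high Egr1, with Nr4a2 from -1.10 to -0.36.

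The genes were also compared with each other within a group. Over the 21 pairs of the 7 genes, Pearson's r was positive in 20 pairs with a median of 0.56 in wild type mice, and positive in 17 with a median of 0.37 in transgenic mice. None of these 42 relations passed adjustment over the family, and 6 in wild type and 0 in transgenic mice had an unadjusted exact permutation p below 0.05. Fos and Nr4a2 gave r = 0.91 in wild type mice (exact permutation p = 0.0083, adjusted 0.23, n = 6) and Spearman's rho = 0.94 (exact permutation p = 0.017, adjusted 0.49), and r was 0.76 without mice 3 and 4. Egr1 and Nr4a2 were positively related there, at r = 0.83 (exact permutation p = 0.025, adjusted 0.23, n = 6) and rho = 0.83 (exact permutation p = 0.058, adjusted 0.49). That relation rests on mice 5 and 6, which share a slide, since r was 0.30 without them. The slides held too few mice of a group for a value within slides.

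The genes whose pattern was most like that of Egr1, by Pearson's r of log2 ratios centred on each group's mean over 13 mice and 17127 genes, were Rgs16 at 0.908, Tbx6 at 0.891 and a probe for an intergenic transcript at 0.884. RGS16 shortens G protein signalling, and Rgs16 itself did not differ between the groups, at -0.01 with an adjusted p of 0.92. Tbx6 encodes a T-box factor and rose by 0.65 ± 0.10 (SE, adjusted p = 4.8e-05). For Fos the most similar genes were an intergenic probe at 0.93, Cyp2c38 at 0.915 and Cmtm3 at 0.911. For Nr4a1 they were an intergenic probe at 0.87, AK136374 at 0.87 and Aldoa, a glycolytic aldolase, at 0.866. Aldoa fell by 0.40 ± 0.07 (SE, adjusted p = 0.00018). These values are descriptions, taken as the highest of many.

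A further list held 10 other genes of the AP-1 family, whose products are related to FOS and JUN. Of the 8 of 10 measured, 2 rose, 1 fell and 5 did not pass, a called share of 37.5% and a median of 0.14. Over all genes the called share was 33.0% and the median 0.00, to be set beside this list and those below. Mafg, a small MAF without an activation domain, rose by 0.62 ± 0.09 (SE, adjusted p = 1.5e-05), and Mafk rose by 0.29 ± 0.07 (SE, adjusted p = 0.005). Fosl2 fell by 0.65 ± 0.22 (SE, adjusted p = 0.032), a call that rested on few mice. Without wild type 5 the difference was -0.41 (adjusted p = 0.066) and without wild type 6 it was -0.53 (0.084). The call was also lost without any of transgenic 3, 5, 6 and 7, at -0.64 to -0.58, with the replicate number as a block (-0.63, adjusted p = 0.065), in the authors' deposited value table (-0.63, 0.059) and without the filter on dim probes (-0.65, 0.05). Fosl1 and Batf were not measured.

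Of 22 other early-response genes 19 were measured, and 2 rose, 5 fell and 12 did not pass, with 36.8% called and a median of -0.16. Myc, a growth-promoting factor, rose by 1.01 ± 0.14 (SE, adjusted p = 1.6e-05), or 2.01-fold, with no overlap between the groups, and Agilent's own log ratio gave 1.92. Nfil3, a circadian repressor, fell by 0.83 ± 0.17 (SE, adjusted p = 0.00062), and Ier5l fell by 0.58 ± 0.13 (SE, adjusted p = 0.0022). Without wild type 4 the number that fell was 8, and in the Cy5 channel alone 1 rose and 2 fell. Plk2, a stress-induced kinase gene, rose by 0.19 ± 0.07 (SE, adjusted p = 0.032), a call lost when any of wild type 2, 3, 5 and 6 or transgenic 1, 3, 5 and 6 was left out, with adjusted p from 0.051 to 0.076. Egr4, Ier2 and Arc were not measured.

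Feedback proteins curb the same signals: NAB proteins bind and repress EGR factors, and DUSP phosphatases switch off MAP kinases. Of 14 such genes 9 were measured, of which 3 rose and 2 fell, with 55.6% called and a median of 0.03. Nab2, itself known as a target of EGR1, rose by 1.32 ± 0.16 (SE, adjusted p = 2.6e-06), or 2.50-fold, from a mean of -0.74 ± 0.37 (SD, n = 6) to 0.58 ± 0.34 (SD, n = 7). Dusp2 rose by 1.42 ± 0.23 (SE, adjusted p = 7e-05), or 2.68-fold. Both separated the groups without overlap. Nab1 rose by 0.21 ± 0.07 (SE, adjusted p = 0.026), a call lost when any of wild type 1, 4 and 6 was left out, with adjusted p from 0.06 to 0.061. The Nab1 call was also lost with the replicate number as a block (adjusted p = 0.062) and in the authors' deposited value table (0.067). Dusp1, an early-response phosphatase, fell by 0.61 ± 0.12 (SE, adjusted p = 0.00054). Dusp10 fell by 0.29 ± 0.10 (SE, adjusted p = 0.034), a call lost when any of wild type 2, 4 and 5 or transgenic 2, 4, 5 and 7 was left out, with adjusted p from 0.053 to 0.096 and 1 gene that fell in place of 2.

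Upstream, none of the 19 measured genes of the ERK and SRF pathway rose, 8 fell and 11 did not pass, with 42.1% called and a median of -0.20. Mkl1, an actin-sensing SRF coactivator, fell by 1.10 ± 0.10 (SE, adjusted p = 7.7e-08), Mapk14, the p38 alpha kinase, by 0.66 ± 0.08 (SE, adjusted p = 1.9e-06), and Srf itself by 0.40 ± 0.07 (SE, adjusted p = 3e-04). The number that fell in this pathway ranged from 6 to 10 when single arrays were left out. Mkl2, at -0.23 (adjusted p = 0.04), lost its call without any of wild type 2, 3, 5 and 6 or transgenic 1, 2, 3, 4 and 5. Elk1, at -0.20 (0.02), was 0.10 in Agilent's own log ratio (0.36) and -0.02 in the authors' deposited value table (0.9). Rps6ka1, an ERK-activated kinase gene, was called higher without transgenic 7 (0.34, adjusted p = 0.021) and with the replicate number as a block (0.34, adjusted p = 0.02). In the cAMP and CREB pathway 17 of 18 were measured, of which 1 rose and 9 fell, with 58.8% called and a median of -0.28. Per1, a clock gene with a CRE, fell by 0.72 ± 0.14 (SE, adjusted p = 0.00056). Adcy9, an adenylyl cyclase, fell by 0.55 ± 0.07 (SE, adjusted p = 6e-06), and Pde4b, a cAMP phosphodiesterase, by 0.54 ± 0.14 (SE, adjusted p = 0.0058). In the calcium, calcineurin and MEF2 pathway 17 of 18 were measured, of which 1 rose and 8 fell, with 52.9% called and a median of -0.20. Camk2b fell by 1.00 ± 0.08 (SE, adjusted p = 8.4e-09), Hdac4, a repressor of MEF2, by 0.67 ± 0.08 (SE, adjusted p = 1.6e-06), and Camk2a by 0.45 ± 0.10 (SE, adjusted p = 0.0013).

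RXR partners of the NR4A receptors and muscle glucose genes known to respond to NR4A proteins were all measured. Of the 13, 2 rose, 10 fell and 1 did not pass, with 92.3% called, a median of -0.40 and 9 without overlap. The number that fell was 7 in the authors' deposited value table, and 9 or 10 when single arrays were left out. Slc2a4, at -0.19 (adjusted p = 0.041), was -0.04 in that value table (0.73). Rxrg, the muscle RXR gene, fell by 1.38 ± 0.09 (SE, adjusted p = 4.3e-10), and Fbp2, the muscle fructose bisphosphatase, by 1.30 ± 0.12 (SE, adjusted p = 8.6e-08). Gbe1, the glycogen branching enzyme, rose by 1.24 ± 0.13 (SE, adjusted p = 3.1e-07). Over all genes, 33.0% were called and 14.7% were without overlap. All lists were chosen with earlier results of these data known, so their shares support nothing beyond themselves.

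With median centring in place of loess, the median difference of all genes was 0.14 instead of 0.00, 1303 genes were called instead of 5695, and the share of calls that were higher was 79.7% instead of 51.1%. Egr1 at 2.44 (adjusted p = 1.2e-05), Egr2 at 0.34 (0.033) and Nr4a2 at -1.16 (0.0076) stayed past the threshold, standing at 2.30, 0.19 and -1.30 relative to the all-gene shift. Nr4a1 at -0.36 (0.25) and Jun at -0.16 (0.73) did not, and on that relative scale they stood at -0.50 and -0.30. Of the lists' named genes, Mafg, Mafk, Myc, Dusp2, Nab2, Mkl1, Camk2b, Rxrg, Fbp2 and Gbe1 were still called, while Fosl2, Nfil3, Ier5l, Dusp1, Mapk14, Srf, Per1, Adcy9, Pde4b, Hdac4 and Camk2a were not. Under that scaling the early-response and the ERK and SRF medians were 0.03 and 0.01, which is -0.11 and -0.13 relative to the all-gene shift, and no cAMP and CREB gene was called. The counts that rose and fell were 2 and 0 among the other AP-1 genes, 1 and 0 among other early-response genes, 2 and 0 among feedback genes, 0 and 1 in the ERK and SRF pathway, 0 and 1 in the calcium pathway, and 1 and 3 among the NR4A partners and glucose genes.

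**Figure D5:**
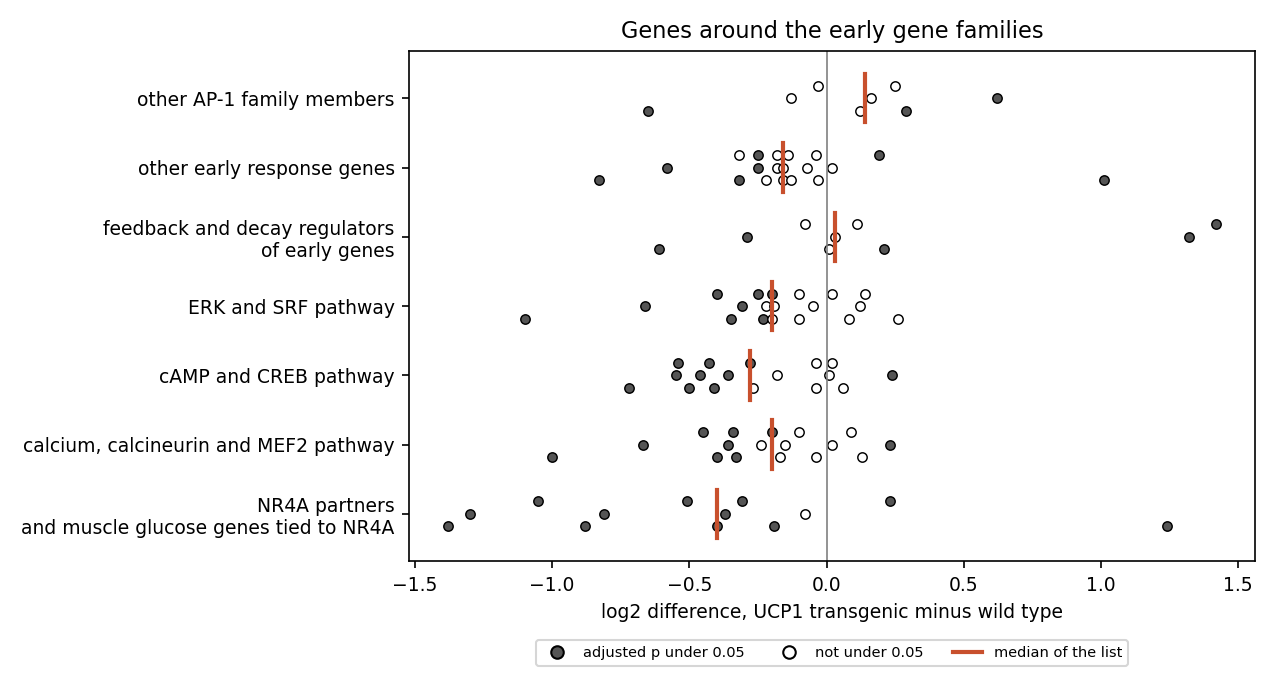
Difference in log2 ratio, UCP1 transgenic minus wild type, of the measured genes of 7 lists around the early gene families. Filled points passed an adjusted p of 0.05, open points did not, and the vertical bar is the list's median, from -0.40 among NR4A partners and glucose genes to 0.14 among other AP-1 genes.

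Across the arrays, 37.1% to 43.2% of probes were well above background and no spot was saturated. Ucp1, the check of the labels, differed by 3.23 ± 0.50 (SE, adjusted p = 5.5e-05), but the array labelled wild type 4 read 0.45, within the transgenic range of -0.20 to 0.85, while the other wild type mice were at -2.82 or below. Without that array Egr1 differed by 2.24, Nr4a1 by -0.80 (adjusted p = 4.9e-05) and Nr4a2 by -1.58 (adjusted p = 1.4e-06). On its slide, the only wild type array against 2 transgenic ones, Nr4a2 differed by -0.19, against -1.11, -1.30 and -2.42 on the other slides, and Jun by -0.07 against -0.34, -0.76 and -0.59. For Egr1 the array read -1.61, within the range of the other wild type mice.

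In whole muscle, fewer cells of a type and less RNA per cell cannot be told apart. Beside the marker counts that follow, 33.0% of all genes were called, 16.9% higher and 16.1% lower. Defining muscle fibre genes were all measured, and of these 7 of 10 fell and 1 rose, the wild type sums of Cy5 level lying between 1274313 and 1517936 and the transgenic sums between 1032239 and 1200862. Of the adipocyte markers 6 of 7 measured rose, with wild type sums of 20187 to 28219 and transgenic sums of 30961 to 45773, and Lep was well above background in no mouse. In the same order of groups, all 3 red blood cell markers rose, with sums of 9435 to 18367 and 14157 to 33190, and 3 of 5 Schwann cell markers rose, with sums of 1728 to 2521 and 2184 to 2916. Of fibroblast markers 2 of 6 rose, with sums of 43087 to 58504 and 44106 to 63629, and 1 of 4 neutrophil markers rose, with sums of 15274 to 17770 and 14193 to 18171. A single marker fell among 7 of endothelial cells (2902 to 3655 and 2827 to 3414), 5 of smooth muscle (7998 to 8993 and 7307 to 9480), 5 of macrophages (2365 to 3262 and 2168 to 2501) and 2 of satellite cells (221 to 331 and 183 to 237). Neither of 2 lymphocyte markers passed, with sums of 373 to 486 and 374 to 447, and Cd3d, Ms4a1, Cd163 and Myf5 were well above background in no mouse. The part of these cell types in the differences of the early genes was not tested.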

How the data were processed

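RNA of 13 mice was measured on 2-colour Agilent arrays. Per the file headers, the deposited scanner files hold spot and local background intensity, the log10 ratio of processed signals and other flag values, written by Agilent Feature Extraction 10.5.1.1. The deposited value table of 25583 rows was taken as log2 values of the authors. Its column median is 7.58 throughout, it followed each array's Cy5 signal, and its normalization is not given in the sources used here. It served as an alternative.

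Here, limma 3.58.1 in R 4.3.3 was used: normexp with offset 50, loess within arrays, outlier spots left out (278 to 377 per array) and spots of a probe averaged. A probe was kept where at least 6 of the 13 arrays showed it well above background in the Cy5 channel (22716, or 40.8%), and the brightest probe stood for a gene. lmFit and eBayes compared the groups, with Benjamini-Hochberg adjustment over 17257 genes, 123 of which lacked a value on some array. Only this comparison was run on simulated log2 ratios, so background correction, loess and the filter were not tested that way. Alternatives covered background, scaling, filter, probe, slide, replicate block and leaving out each array.

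The 10 genes and all lists were chosen with earlier results of these data known. Named genes were these 10, the 3 largest differences past the threshold in each pathway list, the 3 genes most like Egr1, Fos and Nr4a1, and Ucp1. Other genes named were unmeasured list members, markers, and calls lost without an array. Exon and UTR positions of the probes were not analysed here. Replicates are individual mice per the labels.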

Additional observations from a re-analysis of the deposited data

Results flagged for a closer look

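The Ucp1 log2 ratio of wild type mouse 4 was 0.45, apart from the other 5 wild type mice, the nearest of which was at -2.82. The gap was 0.699 of the group's range, above Dixon's 95% limit of 0.625 for 6 samples. It was the 1 such value in 58 groups of 29 genes, and chance flags about 1 group in 20. None of the 7 early genes tested met this rule in either group.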

How the results depend on the processing

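Egr1 (2.18 to 2.92, largest adjusted p 1.2e-05) and Nr4a2 (-2.11 to -1.16, largest adjusted p 0.0076) kept their direction and call under all 24 alternatives, and no tested early gene reversed under any. With median centring 1 gene was called lower instead of 3, since Nr4a1 (-0.36) and Jun (-0.16) lost their calls. The called-higher count was 1 instead of 2 in the authors' value table, where Egr2 was 0.32 (adjusted p 0.08), and with the filter on all 13 arrays, where Egr2 has no value because it failed that filter. Fosb passed in the authors' value table (-0.46), with slide as a fixed block (-0.27) and without wild type 3 (-0.31), but not with slide as a random block (-0.25) or in Agilent's log ratio (-0.58), and ranged from -0.31 to -0.15 when single arrays were left out. The cause of the other changes was not tested.

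With the replicate number as a block, Egr1 was 2.20, Egr2 0.27, Jun -0.46, Nr4a1 -0.69 and Nr4a2 -1.33, none of the 7 genes' calls changed, and 5369 genes were called. In the lists around them 9 calls were lost (Camk2d, Dusp10, Elk1, Fosl2, Ier3, Nab1, Sik1, Slc2a4 and Trib1) and 5 were gained (Cyr61, Elk4, Mapk9, Nfatc2 and Rps6ka1). No pairing of the mice by number was apparent. Deviations of same-numbered mice correlated at -0.226 to 0.227 over 6 pairs, and 0 wild type arrays correlated best with their own number. These 6 pairs are too few to exclude a pairing. Dim signal limits Egr2, Egr3, Fosb, Junb and Nr4a3 most.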
